A study of Homo sapiens with 4 samples.

Results

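Collagen chain genes encode the subunits of the collagens, the trimeric proteins that give extracellular matrix its tensile strength. The members were every probe set annotated to a single gene whose symbol is COL, a number, A and a number, with pseudogenes and antisense transcripts left out. This gave 43 genes measured by 112 probe sets, of 19741 named genes and 54675 probe sets on the array. By class they were 11 fibrillar chains, 6 chains of type IV (basement membrane) collagen, 5 beaded filament chains of type VI and 10 fibril-associated (FACIT) chains. The rest were 3 hexagonal network chains, 1 anchoring fibril chain, 3 transmembrane chains, 2 multiplexins and 2 other chains. The transmembrane chain COL17A1 is not among the members, as no probe set was annotated to it alone.

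RNA came from the human lung adenocarcinoma lines CL1-5 and CL1-0, of which CL1-5 was derived from CL1-0 and is the more invasive. G9a, the product of EHMT2, methylates lysine 9 of histone H3, and its level was lowered in CL1-5 and raised in CL1-0. The 4 groups were CL1-5 with a G9a shRNA (shRNA2 in its title), CL1-5 with a control shRNA, CL1-0 expressing HA-tagged G9a, and CL1-0 with a control vector. All were stably transduced populations selected with puromycin for 2 weeks, and each was hybridised on 1 Affymetrix array. There were no replicates, so a difference within a line has no replicate check and no p-value. The knockdown rests on a single shRNA, and the control construct differs between the lines. The labels give type II alveolar cells as the cellular basis of both lines. Of 7 type II markers on the array, 5 reached the array-wide median signal in CL1-5 with the G9a shRNA and 5 with the control shRNA, against 3 in CL1-0 with HA-G9a and 4 with the vector. The shares of all genes reaching it were 63.7%, 59.6%, 61.3% and 60.9%, in the same order. None of the 7 markers reached the 75th percentile on any array, where 41.6%, 38.4%, 37.0% and 38.0% of all genes did.

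Collagen chains are made in the endoplasmic reticulum, where prolines and lysines are hydroxylated and chains of matching type assemble into trimers. Fibrillar chains then form the banded fibrils of stroma, whereas type IV chains form the sheet-like network of basement membranes on which epithelial and endothelial cells rest. Type VI chains form beaded microfibrils around many cell types, FACIT chains decorate fibrils, and transmembrane and multiplexin collagens sit on or near the cell surface. In lung, most fibrillar collagen comes from fibroblasts, while epithelial cells also contribute basement membrane chains.

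The type IV genes lie in 3 head-to-head pairs, and 2 of these pairs carry the type IV differences past 2-fold in the knockdown, so their start regions are shown first. The remaining pair, COL4A4 and COL4A3 on chromosome 2, did not reach the filter together in either line and is given by its values only. COL4A1 and COL4A2 start 126 bases apart on chromosome 13, on opposite strands. COL4A6 and COL4A5 start 379 bases apart on chromosome X, and their upstream windows share 121 bases. RefSeq also gives COL4A6 a start farther from COL4A5, and the nearer start is used here. The COL13A1 window is added because that gene was far apart on the arrays in both lines. Sequences are from RefSeq (GRCh38.p14), which gave start windows for 31 of the 43 genes. They are written 5′ to 3′ on the strand of the gene named (COL4A2 for the first), end at the base before the start site, and have motif matches in capitals.
COL4A1-COL4A2 (chr13:110307158-110307283, plus strand): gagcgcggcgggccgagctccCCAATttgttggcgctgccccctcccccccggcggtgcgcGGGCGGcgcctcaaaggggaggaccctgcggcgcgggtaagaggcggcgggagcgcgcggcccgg
COL4A5 (chrX:108439588-108439837, plus strand): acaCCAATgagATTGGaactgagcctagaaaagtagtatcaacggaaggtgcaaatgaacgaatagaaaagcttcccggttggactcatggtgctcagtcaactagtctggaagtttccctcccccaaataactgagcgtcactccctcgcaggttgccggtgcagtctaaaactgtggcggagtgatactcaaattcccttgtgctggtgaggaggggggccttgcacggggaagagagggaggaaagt
COL4A6 (chrX:108439459-108439708, minus strand): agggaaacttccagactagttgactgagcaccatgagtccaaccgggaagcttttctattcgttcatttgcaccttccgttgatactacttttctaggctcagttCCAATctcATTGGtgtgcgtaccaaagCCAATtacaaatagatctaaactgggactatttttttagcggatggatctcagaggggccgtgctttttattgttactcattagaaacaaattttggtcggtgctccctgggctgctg
COL13A1 (chr10:69801656-69801905, plus strand): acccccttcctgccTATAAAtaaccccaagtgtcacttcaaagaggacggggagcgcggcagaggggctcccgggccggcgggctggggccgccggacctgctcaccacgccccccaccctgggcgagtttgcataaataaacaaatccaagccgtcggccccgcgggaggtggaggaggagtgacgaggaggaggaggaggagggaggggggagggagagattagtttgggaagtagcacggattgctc
The motifs searched on both strands were the letters CCAAT, the GC box GGGCGG and the TATA box TATAAA, and no marked match overlapped another. The COL4A1-COL4A2 stretch was 80.2% G and C, with 20 CpG dinucleotides, 1 CCAAT and 1 GGGCGG. Among the last 126 bases before all 35116 RefSeq starts, 21.1% held CCAAT and 34.6% held GGGCGG. The COL4A5 and COL4A6 windows were 51.2% and 44.0% G and C, with 8 and 7 CpG dinucleotides. They held 2 and 3 CCAAT matches, of which the pair close together lies in the shared bases, and no GGGCGG. The window of the farther COL4A6 start held GGGCGG and no CCAAT. The COL13A1 window held only TATAAA, far upstream of the start. Over 250 bases, CCAAT occurred in 25.6% of the 43 collagen windows and 32.0% of all start windows. GGGCGG occurred in 55.8% of collagen windows and 42.6% of all, and TATAAA in 16.3% of collagen windows and 10.7% of all. A match is a string of letters and was not tied to any measured difference.

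The knockdown and the overexpression were visible in the targeted gene. EHMT2 had a signal of 28.1 with the G9a shRNA against 376 with the control shRNA, and of 862 with HA-G9a against 420 with the vector. Signals are the authors' linear intensities. The G9a shRNA array was brighter across most genes, with a median log2 ratio of 0.42 to its control, and the HA-G9a array was slightly dimmer, at -0.08. Ratios below are therefore log2 ratios relative to the median gene of their comparison. Signals under 3.35, the 25th percentile of all values, were set to that floor. A gene was counted as measured in a comparison when the brighter array reached 12.5, the median of all values. Each gene is given by its brightest probe set. Probe sets are not calibrated against each other, so signals are compared between arrays and not between genes.

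Collagen genes reached the median less often than genes in general. Of the 43, 27 reached the median of all values on at least 1 array, 11 reached the 75th percentile of 84.2, and 7 were at or above the median on all 4 arrays. On single arrays, 20 were at or above the median with the G9a shRNA, 16 with the control shRNA, 18 with HA-G9a and 14 with the vector. That is 46.5%, 37.2%, 41.9% and 32.6% of collagens, where the shares of all genes were 63.7%, 59.6%, 61.3% and 60.9%. At or above the 75th percentile were 7 with the G9a shRNA, 8 with the control shRNA, 5 with HA-G9a and 5 with the vector, where 41.6%, 38.4%, 37.0% and 38.0% of all genes were. In bulk RNA, fewer cells expressing a gene and less RNA per cell cannot be told apart. The 16 genes that stayed below the median everywhere were COL2A1 and COL24A1 of the fibrillar class, COL6A5 and COL6A6, the FACIT genes COL9A1, COL14A1, COL16A1, COL19A1 and COL21A1, all of COL8A1, COL8A2 and COL10A1, and COL15A1, COL25A1, COL26A1 and COL28A1. Their highest signals lay between 2.08 and 12.1. Most fibroblast markers other than collagens were dim as well: of 9, the number reaching the median was 1 with the G9a shRNA, 1 with the control shRNA, 1 with HA-G9a and 2 with the vector. ACTA2 was above it on every array, at 21.2 with the G9a shRNA, 24.5 with the control shRNA, 16.4 with HA-G9a and 20.0 with the vector. DCN was above it with the vector only, at 15.5. PDGFRA, PDGFRB, THY1, LUM, FAP, DPT and TCF21 were below it on every array.

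**Figure D1:**
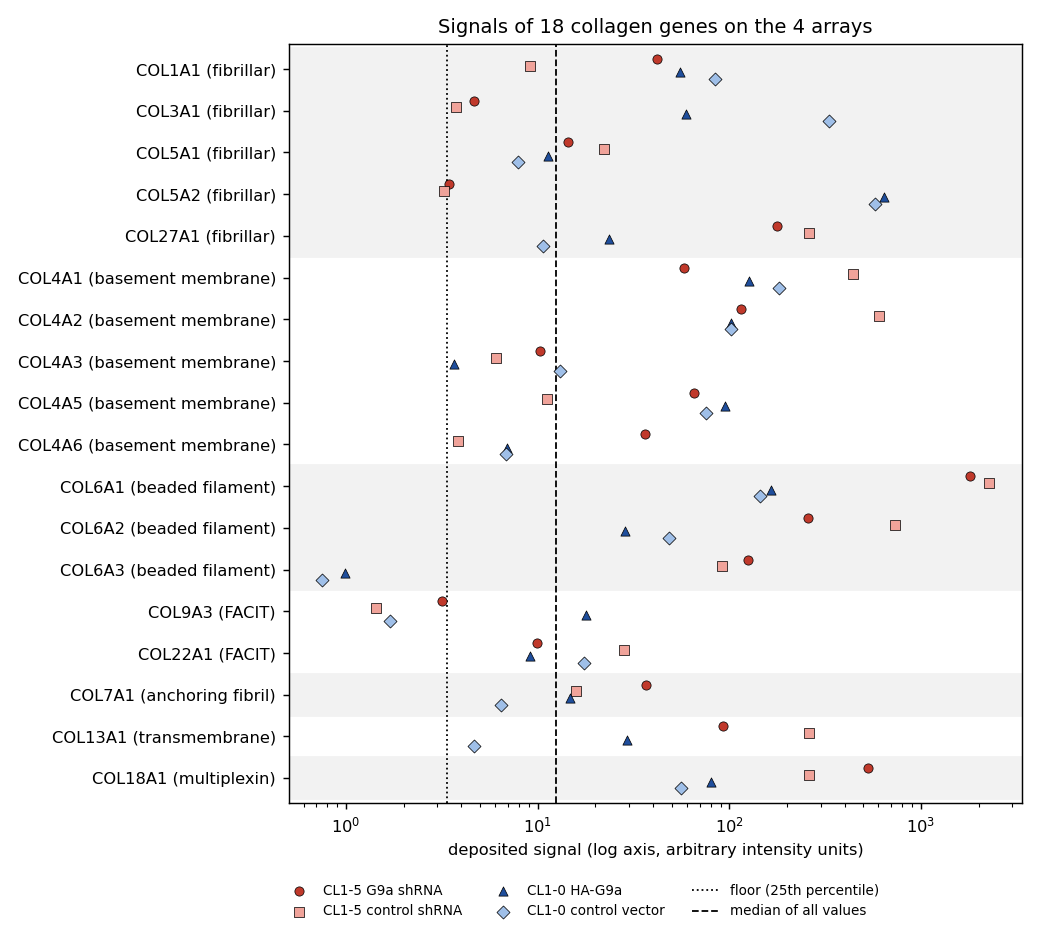
Deposited signal (log axis) of the 18 collagen genes named with their values, on each of the 4 arrays, with the floor of 3.35 (dotted) and the median of all values, 12.5 (dashed). COL5A2 and COL3A1 lie near the floor on both CL1-5 arrays and above 50 on both CL1-0 arrays, COL6A3 lies below the floor on both CL1-0 arrays, and COL4A1 and COL4A2 stand highest with the CL1-5 control shRNA.

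Within CL1-5, reducing G9a went with opposite differences in the type IV pairs. The widely expressed chains COL4A1 and COL4A2, which assemble together in nearly all basement membranes, were lower with the G9a shRNA. The chains COL4A5 and COL4A6, which assemble together in a narrower set of basement membranes, were higher. COL4A1 had a signal of 58.1 with the G9a shRNA and 441 with the control shRNA, a relative log2 ratio of -3.35, or 10.2-fold lower. COL4A2 had 116 with the G9a shRNA and 606 with the control shRNA, a ratio of -2.81. The second probe set of each gene gave nearly the same ratio, -3.32 for COL4A1 at 23.1 against 172, and -2.80 for COL4A2 at 44.3 against 231. Under the 9 other settings tried, the ratio stayed between -3.38 and -2.93 for COL4A1 and between -2.84 and -2.39 for COL4A2.

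COL4A5 had a signal of 65.5 with the G9a shRNA and 11.2 with the control shRNA, a relative log2 ratio of 2.12. COL4A6 had 36.3 with the G9a shRNA and 3.82 with the control shRNA, a ratio of 2.83, with the control close to the floor. Under the 7 other settings that gave a value, the ratio lay between 1.24 and 2.54 for COL4A5 and between 1.05 and 3.25 for COL4A6, so its size depends on how dim signals are treated. Both were dim in the control, and each was above the median by 1 probe set only, so the difference has no second probe set behind it. COL4A4, which assembles with COL4A3 and COL4A5 in kidney and lung alveolar basement membranes, had 13.7 with the G9a shRNA and 10.1 with the control shRNA, a ratio of 0.01. COL4A3 was below the filter in CL1-5. Type IV collagen is also a main product of endothelial cells. Of 7 endothelial markers, 5 were measured in CL1-5 and at least 2-fold lower with the G9a shRNA, where 7.76% of all measured genes were. The median ratio of these markers was -2.78. Their summed signal over the 7 was 116 with the G9a shRNA and 518 with the control shRNA. PECAM1 had 81.5 with the G9a shRNA and 318 with the control shRNA, CLDN5 7.87 with the G9a shRNA and 81.8 with the control shRNA, and CDH5 5.24 with the G9a shRNA and 62.3 with the control shRNA. VWF and TEK were below the floor on both CL1-5 arrays. In CL1-0 the sum was 51.1 with HA-G9a and 64.6 with the vector. Epithelial markers differed in the knockdown as well: of 5 measured, 3 were at least 2-fold higher and 1 lower, where 8.13% and 7.76% of all measured genes were. CDH1 had 77.6 with the G9a shRNA and 2.36 with the control shRNA, CLDN3 88.4 and 1.05, and EPCAM 18.1 and 6.06. KRT8, the lower one, had 325 with the G9a shRNA and 757 with the control shRNA. KRT18, within 2-fold, had 2533 and 2945 in the same order. Summed over the 7 epithelial markers, the signal was 3047 with the G9a shRNA and 3717 with the control shRNA. The part of the endothelial and epithelial genes in the type IV values was not tested.

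The other collagens of CL1-5 were mixed. Of 21 collagens measured in this comparison, 3 were at least 2-fold higher with the G9a shRNA, where 8.13% of all 13045 measured genes were, and 6 were at least 2-fold lower, where 7.76% of all genes were. The median ratio of the 21 was -0.41, where that of all genes is 0 by construction. The 3 higher genes were COL1A1, COL4A5 and COL4A6, and the 6 lower were COL4A1, COL4A2, COL6A2, COL13A1, COL22A1 and COL5A1. The 8 collagens past the 75th percentile included 0 of the higher and 4 of the lower, namely COL4A1, COL4A2, COL6A2 and COL13A1, where 4.85% of all genes past it were higher and 5.17% lower.

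COL6A2, 1 of the 3 chains that build type VI microfibrils, had a signal of 256 with the G9a shRNA and 730 with the control shRNA, a relative log2 ratio of -1.93. Its second probe set had a ratio of -1.80. Its partner COL6A1 had 1794 with the G9a shRNA and 2268 with the control shRNA, a ratio of -0.76, and its 6 measured probe sets ranged from -1.19 to -0.04. The remaining partner COL6A3 had 125 with the G9a shRNA and 91.4 with the control shRNA, a ratio of 0.03. Only COL6A2 of the trimer was thus past 2-fold.

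COL13A1, a transmembrane collagen of cell-matrix adhesions, had a signal of 92.9 with the G9a shRNA and 260.4 with the control shRNA, a relative log2 ratio of -1.91. Its other probe sets had ratios of -1.72 and -0.75, all of the same sign. COL22A1, a FACIT of tissue junctions such as that between muscle and tendon, had 9.94 with the G9a shRNA and 28.1 with the control shRNA, a ratio of -1.92, with both arrays in the dim range. COL27A1, a fibrillar chain of cartilage, had 178 with the G9a shRNA and 261 with the control shRNA, a ratio of -0.97, just short of 2-fold. Its other measured probe sets were nearer to the median gene, with ratios of -0.81 and -0.46. COL18A1, the heparan sulfate-bearing multiplexin from which endostatin is cut, had 532 with the G9a shRNA and 261 with the control shRNA, a ratio of 0.61, and 0.55 by its second probe set. COL7A1, the anchoring fibril chain of the skin's basement membrane zone, had 36.9 with the G9a shRNA and 15.9 with the control shRNA, a ratio of 0.79.

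Of the 11 fibrillar chains, 6 were measured in CL1-5, and 1 of them, COL27A1, reached the 75th percentile. COL1A1, a chain of the main stromal fibril, had a signal of 42.0 with the G9a shRNA and 9.07 with the control shRNA, a relative log2 ratio of 1.79. A second probe set agreed in sign, at 15.9 with the G9a shRNA and 1.68 with the control shRNA, but the remaining measured probe set was nearly level, at 51.2 with the G9a shRNA and 44.1 with the control shRNA, a ratio of -0.20. Its partner COL1A2 had 15.6 with the G9a shRNA and 9.07 with the control shRNA, a ratio of 0.36. COL5A1, which controls fibril diameter, had 14.5 with the G9a shRNA and 22.1 with the control shRNA, a ratio of -1.03. Of its 3 probe sets, another read 16.01 against 4.39, a ratio of 1.44, and the remaining one 7.49 against 14.4, a ratio of -1.37. The direction of COL5A1 is therefore not settled by these arrays. Across the 11 collagens with several measured probe sets, 8 had all of them on the same side of the median gene. The pooled SD of their ratios within a gene was 0.72 on the log2 scale, and 0.54 over all genes.

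**Figure D2:**
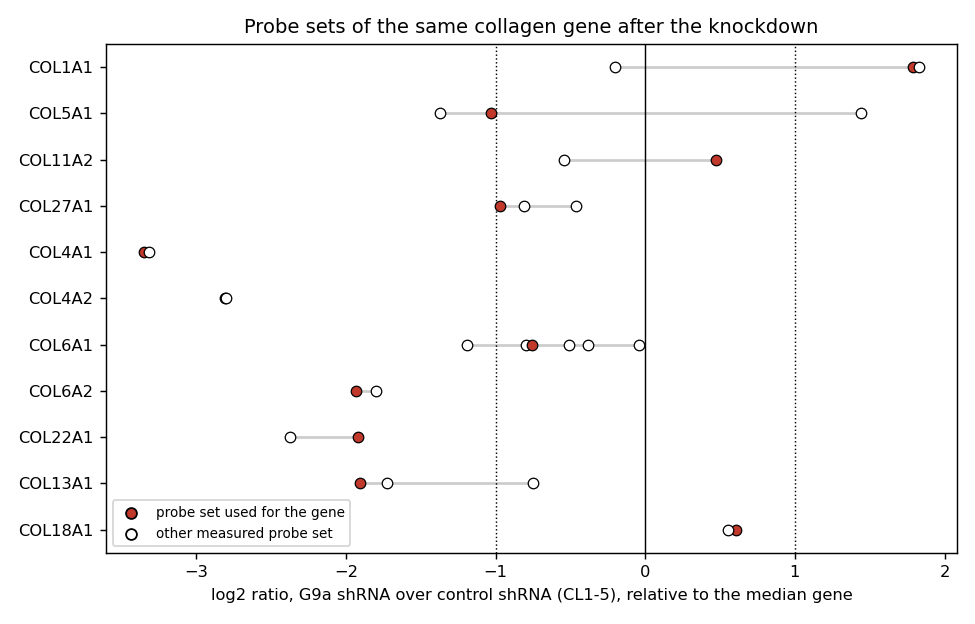
Relative log2 ratio of each measured probe set of the 11 collagen genes with several, for the G9a shRNA over the control shRNA in CL1-5. Filled points are the probe set used for the gene and dotted lines mark 2-fold. The probe sets of COL4A1 and of COL4A2 coincide near -3.3 and -2.8, whereas those of COL5A1 and COL1A1 fall on both sides of 0.

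Within CL1-0, COL3A1 was lower with HA-G9a, and 4 dimmer collagens were higher. Of 21 measured collagens, 4 were at least 2-fold higher with HA-G9a, where 5.46% of all 12791 measured genes were, and 2 were at least 2-fold lower, where 3.74% of all genes were. The median ratio of the 21 was 0.27. The 4 higher were COL13A1, COL9A3, COL7A1 and COL27A1, and the 2 lower were COL3A1 and COL4A3. Past the 75th percentile, 0 of 6 collagens were higher and 1, COL3A1, was lower, where 1.60% and 0.814% of all genes past it were.

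COL3A1, a fibrillar chain of vessel walls and other elastic tissues that forms trimers of itself, had a signal of 59.7 with HA-G9a and 330 with the vector, a relative log2 ratio of -2.38, or 5.22-fold lower. Its other bright probe sets had ratios of -2.22, at 46.5 against 230, and of -2.10, at 15.7 against 71.5. The ratio stayed between -2.54 and -1.19 under the 8 other settings that gave a value. COL5A2, a type V chain and the neighbour of COL3A1 on chromosome 2, had 639 with HA-G9a and 578 with the vector, a ratio of 0.23. COL1A1 had 55.4 with HA-G9a and 84.2 with the vector, a ratio of -0.52. The difference of COL3A1 was thus not seen in its neighbour, and the chains of type I were closer to the median gene.

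COL13A1 had a signal of 29.4 with HA-G9a and 4.65 with the vector, a relative log2 ratio of 2.74. With its other probe sets below the filter on both CL1-0 arrays and slightly lower with HA-G9a, at ratios of -0.35 and -0.36, this value rests on 1 probe set. COL9A3, a type IX FACIT chain of cartilage, had 17.97 with HA-G9a and 1.69 with the vector, which is below the floor, so it was at least 5.67-fold higher. COL7A1 had 14.8 with HA-G9a and 6.42 with the vector, a ratio of 1.29, and 1.32 by its second probe set. Both of its probe sets were dim, and with 16 added to each signal the COL7A1 ratio was 0.53, short of 2-fold. COL27A1 had 23.7 with HA-G9a and 10.7 with the vector, a ratio of 1.24, while its other measured probe set gave 0.93. A probe set of COL27A1 that was bright in CL1-5 but below the filter in CL1-0 went the other way, at 5.63 with HA-G9a and 10.2 with the vector, and with 16 added to each signal the ratio was 0.65, short of 2-fold. COL4A3 had 3.66 with HA-G9a and 13.2 with the vector, a ratio of -1.76, both near the dim end. Of its 7 probe sets only this 1 reached the filter in CL1-0, and with 16 added to each signal the COL4A3 ratio was -0.50.

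The type IV pairs that stood apart after the knockdown were within 2-fold of the median gene, or below the filter, in CL1-0. COL4A1 had a signal of 127 with HA-G9a and 182 with the vector, a relative log2 ratio of -0.44. COL4A2 had 103 with HA-G9a and 102 with the vector, a ratio of 0.09. COL4A5 had 94.9 with HA-G9a and 75.2 with the vector, a ratio of 0.42, and COL4A6 was below the filter at 6.91 and 6.85. COL6A1 had 164 with HA-G9a and 144 with the vector, a ratio of 0.27, although 1 of its 5 measured probe sets read 3.34 against 18.2. COL6A2 had 28.6 with HA-G9a and 48.4 with the vector, a ratio of -0.68, against 0.23 by its second probe set. COL18A1 had 79.8 with HA-G9a and 56.1 with the vector, a ratio of 0.59. Whether the G9a ratios differ between the lines was not tested, as each line has 1 array per state.

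**Figure D3:**
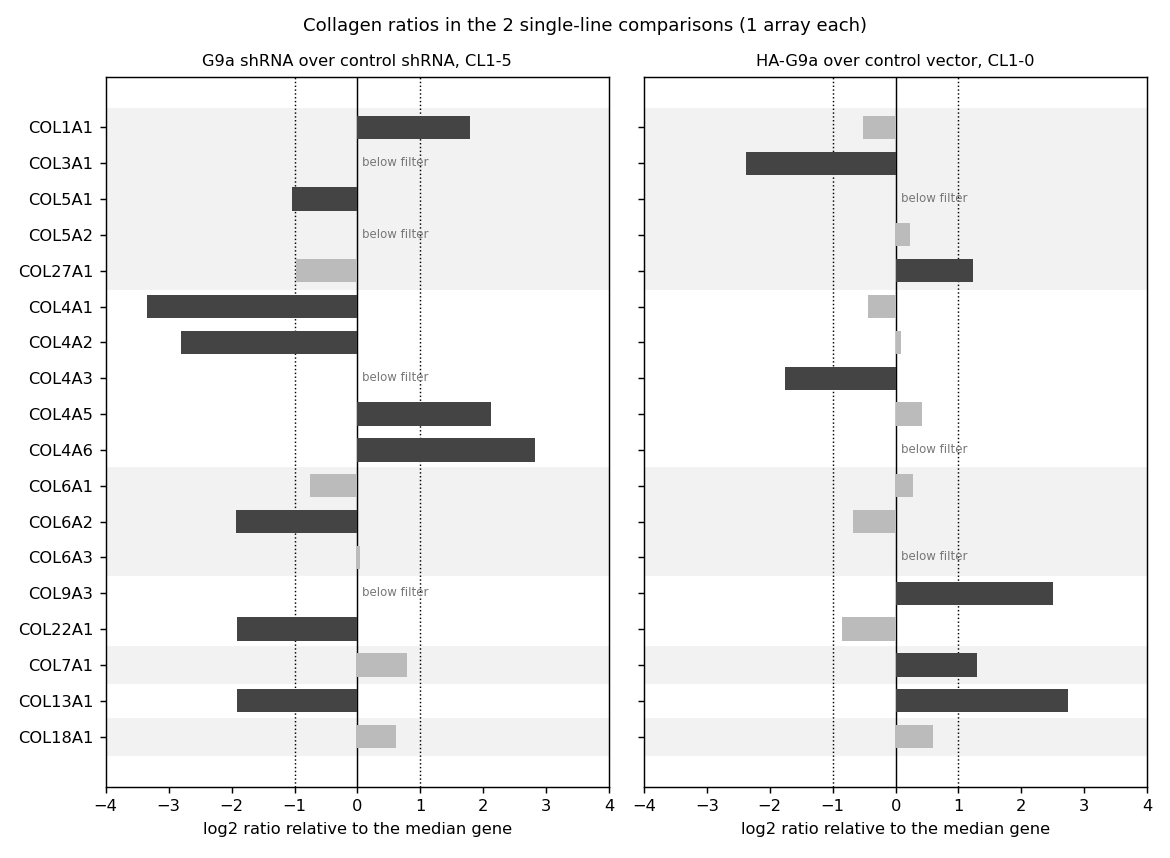
Log2 ratio relative to the median gene of the 18 named collagens, for the G9a shRNA over the control shRNA in CL1-5 (left) and HA-G9a over the control vector in CL1-0 (right). Dark bars are past 2-fold, and genes whose brighter array was under 12.5 have no bar. COL13A1 stands at -1.91 on the left and 2.74 on the right, and COL27A1 at -0.97 and 1.24.

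A single direction with G9a in both lines was tested with limma on all 4 arrays, with line as a covariate, setting the arrays with more G9a (the CL1-5 control shRNA and HA-G9a) against those with less. With 1 residual degree of freedom, 0 of 13953 genes passed a Benjamini-Hochberg adjusted p of 0.05 in either direction (0.00% each), and 591 had an unadjusted p under 0.05. Among the 27 collagens tested, 2 had such an unadjusted p. They were COL13A1, higher by 2.31 on the log2 scale with more G9a (SE 0.34, limma adjusted p = 0.957), and COL27A1, higher by 1.09 (SE 0.26, limma adjusted p = 0.957). By the probe set used for each gene, both lines had the same sign, and neither gene passed the adjustment. In CL1-0 the other COL13A1 probe sets had HA-G9a ratios of -0.35 and -0.36. A further COL27A1 probe set that was bright in CL1-5 had -0.77 there, and another had 0.93. The probe sets with these negative ratios were below the filter in CL1-0.

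Between the lines, COL6A1 and COL6A3 of type VI were higher in CL1-5, and the fibrillar gene COL5A2 was lower. The other type VI genes were COL6A2, which did not pass, and COL6A5 and COL6A6, which were below the median on every array. COL6A1 had signals of 1794 and 2268 on the CL1-5 arrays, against 164 and 144 on the CL1-0 arrays. COL6A3 had 125 and 91.4 on the CL1-5 arrays, against 0.993 and 0.748 on the CL1-0 arrays, which are below the floor. COL5A2 had 3.43 and 3.25 on the CL1-5 arrays, against 639 and 578 on the CL1-0 arrays. For each of these genes the arrays of the lines did not overlap.

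Both CL1-5 arrays were set against both CL1-0 arrays with limma on array-centred log2 values. Of 27 collagens tested, 2 were higher in CL1-5 at an adjusted p of 0.05, where 0.860% of all 13953 genes were, and 1 was lower, where 1.53% were. COL6A3 was higher by 4.69 on the log2 scale (SE 0.21, limma adjusted p = 0.00979). COL6A1 was higher by 3.41 (SE 0.34, limma adjusted p = 0.0342). COL5A2 had a difference of -7.79 (SE 0.26, limma adjusted p = 0.00979). The dim arrays of COL6A3 (both below the floor) and of COL5A2 (on either side of it) owe their small spread to the floor, so these differences, errors and p-values depend on it. With 16 added to each signal in place of the floor, the difference was 2.60 for COL6A3 and -5.28 for COL5A2. These are 2 arrays against 2 whose spread includes the change of G9a, and the calls are fragile: with the CL1-5 control shRNA, the HA-G9a or the vector array left out, 0 of 27 passed, and without the G9a shRNA array COL6A3 and COL5A2 passed and COL6A1 did not. Over all settings tried, the limma adjusted p lay between 0.000412 and 0.122 for COL5A2, between 0.00182 and 0.130 for COL6A3 and between 0.0032 and 0.193 for COL6A1, with no change of sign.

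Further collagens had large differences that did not pass. COL3A1 had signals of 4.67 and 3.75 on the CL1-5 arrays, against 59.7 and 330 on the CL1-0 arrays, a difference of -5.37 (SE 0.86, limma adjusted p = 0.0673). COL27A1 had 178 and 261 on the CL1-5 arrays, against 23.7 and 10.7 on the CL1-0 arrays, a difference of 3.46 (SE 0.58, limma adjusted p = 0.0715). COL18A1 had 532 and 261 on the CL1-5 arrays, against 79.8 and 56.1 on the CL1-0 arrays, a difference of 2.18 (SE 0.36, limma adjusted p = 0.0711). COL6A2, at 256 and 730 on the CL1-5 arrays against 28.6 and 48.4 on the CL1-0 arrays, differed by 3.24 (SE 0.73, limma adjusted p = 0.11). In all of these the arrays of a line stayed on their own side of the other line. COL13A1 differed by 3.43 with a wide error (SE 1.18), and COL4A1 by -0.23 (SE 1.18), since its CL1-5 arrays lie on both sides of its CL1-0 arrays.

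**Figure D4:**
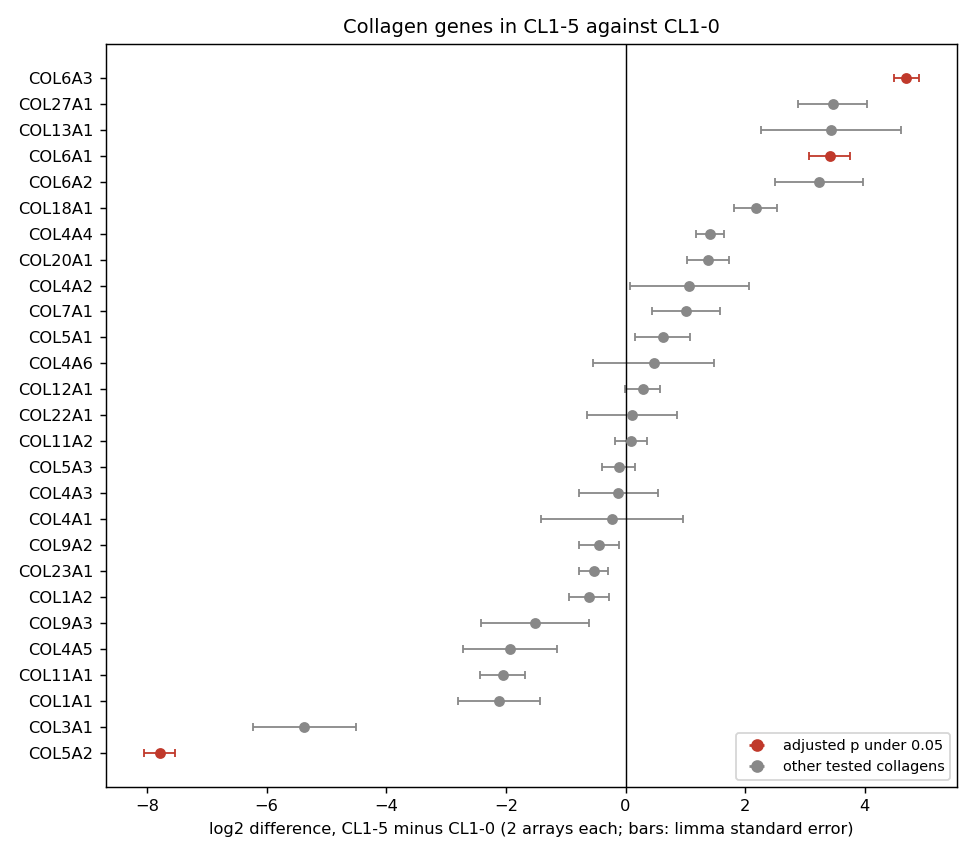
Log2 difference of CL1-5 minus CL1-0 for the 27 collagens tested, from 2 arrays per line, with limma standard errors. COL6A3 and COL6A1 (red, right) and COL5A2 (red, left) passed an adjusted p of 0.05, and COL4A1 has one of the widest bars, at -0.23 with an SE of 1.18.

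The control arrays alone were also compared, without a test and with arrays that the other comparisons share. Of 22 collagens measured, 11 were at least 2-fold higher in the CL1-5 control than in the CL1-0 control, where 12.6% of all genes were, and 5 were at least 2-fold lower, where 13.2% were. Past the 75th percentile, 8 of 10 were higher and 2 lower, where 10.3% and 9.48% of all genes past it were. Against the CL1-0 control, COL13A1 was 56.6-fold higher by its brightest probe set, a relative log2 ratio of 5.82, where its other probe sets gave 2.82 and 2.91. COL6A3 was at least 27.5-fold higher, COL6A1 15.9-fold and COL6A2 15.3-fold higher, COL4A2 5.98-fold and COL4A1 2.45-fold higher. COL5A2 was at least 170.5-fold lower and COL4A5 6.62-fold lower. COL3A1 was 87.1-fold lower, with its CL1-5 signal of 3.75 close to the floor. COL1A1 was 9.20-fold lower by its brightest probe set, but another that was almost as bright was level, at 44.1 in the CL1-5 control and 46.3 in the CL1-0 control. With the G9a shRNA, COL4A5 in CL1-5 had a signal of 65.5, nearer to the 75.2 of the CL1-0 control than to the 11.2 of the CL1-5 control, whereas COL3A1 and COL5A2 were near the floor on both CL1-5 arrays.

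Genes that make, cut, bind or degrade collagen were described from 7 lists. Their counts stand beside the shares of all measured genes past 2-fold, which were 8.13% higher and 7.76% lower with the G9a shRNA, and 5.46% higher and 3.74% lower with HA-G9a. Differences between lists were not tested. Enzymes of chain hydroxylation and glycosylation were mostly within 2-fold after the knockdown: of 11 measured, 1 was at least 2-fold higher, P3H4, a partner of lysyl hydroxylation, at 88.0 with the G9a shRNA and 27.2 with the control shRNA, and 0 were lower (median ratio 0.03). With HA-G9a, 1 of 13 was higher and 1 lower (median -0.07). The higher was P3H2, a prolyl 3-hydroxylase acting on type IV collagen, at 90.8 with HA-G9a and 2.89 with the vector, and the lower was its relative P3H3 at 4.19 with HA-G9a and 18.1 with the vector. Of 12 chaperone and export genes, 0 were higher and 1 lower with the G9a shRNA (median -0.03), namely SERPINH1, the collagen-specific chaperone, at 237 with the G9a shRNA and 542 with the control shRNA. With HA-G9a none of these 12 passed 2-fold (median 0.17).

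The lists of extracellular processing and matrix partners held more genes past 2-fold after the knockdown. Of 9 measured genes of propeptide cleavage and cross-linking, 1 was higher and 4 lower with the G9a shRNA, where 8.13% and 7.76% of all genes were (median -0.71). TGM2, a cross-linking transglutaminase, had 15.4 with the G9a shRNA and 236 with the control shRNA. PCOLCE, an enhancer of procollagen cleavage, had 33.1 with the G9a shRNA and 6.63 with the control shRNA. With HA-G9a, 2 of 11 were higher and 0 lower (median 0.18), and LOXL2, a lysyl oxidase, had 297 with HA-G9a and 95.4 with the vector. Of 12 measured fibril and basement membrane partners, 0 were higher and 6 lower with the G9a shRNA, where 7.76% of all genes were lower (median -1.33). Among them LAMB1, a laminin chain of basement membranes, had 56.5 with the G9a shRNA and 448 with the control shRNA, and SPARC, which binds collagen, 4.73 with the G9a shRNA and 283 with the control shRNA. Fibronectin (FN1) had 32.4 with the G9a shRNA and 184 with the control shRNA. With HA-G9a, 5 of 15 partners were higher and 1, POSTN at 41.0 with HA-G9a and 151 with the vector, was lower (median 0.56).

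Collagen receptors had 2 of 9 higher and 3 lower with the G9a shRNA, where 8.13% and 7.76% of all genes were (median -0.26). ITGA2, the alpha chain of a collagen-binding integrin, had 190.3 with the G9a shRNA and 416 with the control shRNA, and MRC2, which takes up collagen fragments, 155 with the G9a shRNA and 48.4 with the control shRNA. The other lower receptors were OSCAR, at 6.94 with the G9a shRNA and 37.7 with the control shRNA, and CD44, at 653 and 1581. With HA-G9a, 2 of 9 receptors were higher and 0 lower (median 0.10). ITGA2 had 43.9 with HA-G9a and 5.66 with the vector, and CD44 had 331 with HA-G9a and 32.3 with the vector. Of 9 measured collagen-degrading enzymes, 0 were higher and 2 lower with the G9a shRNA (median 0.05), namely the interstitial collagenase MMP1 and the membrane-bound MMP14. MMP1 had 16.8 with the G9a shRNA and 424 with the control shRNA, and in CL1-0 27.3 with HA-G9a and 3.98 with the vector. With HA-G9a, 3 of 9 of these enzymes were higher and 1 lower (median 0.11). Of 22 regulators of collagen transcription and TGF-beta signalling, 3 were higher and 4 lower with the G9a shRNA (median 0.27), with TGFB1 at 151 with the G9a shRNA and 582 with the control shRNA. TGFB2, another TGF-beta ligand, was higher, at 50.8 with the G9a shRNA and 14.8 with the control shRNA. With HA-G9a, 5 of 19 were higher and 0 lower (median 0.01), and TGFB2 was again higher, at 85.6 with HA-G9a and 34.5 with the vector. The largest ratios there were those of SOX9, at 191 with HA-G9a and 30.8 with the vector, and SNAI2, at 35.7 and 6.93. Both were lower with the G9a shRNA, SOX9 at 578 against 958 with the control shRNA and SNAI2 at 274 against 682. TGFBR2 and SMAD3, the rest of the higher with HA-G9a, were within 2-fold after the knockdown.

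**Figure D5:**
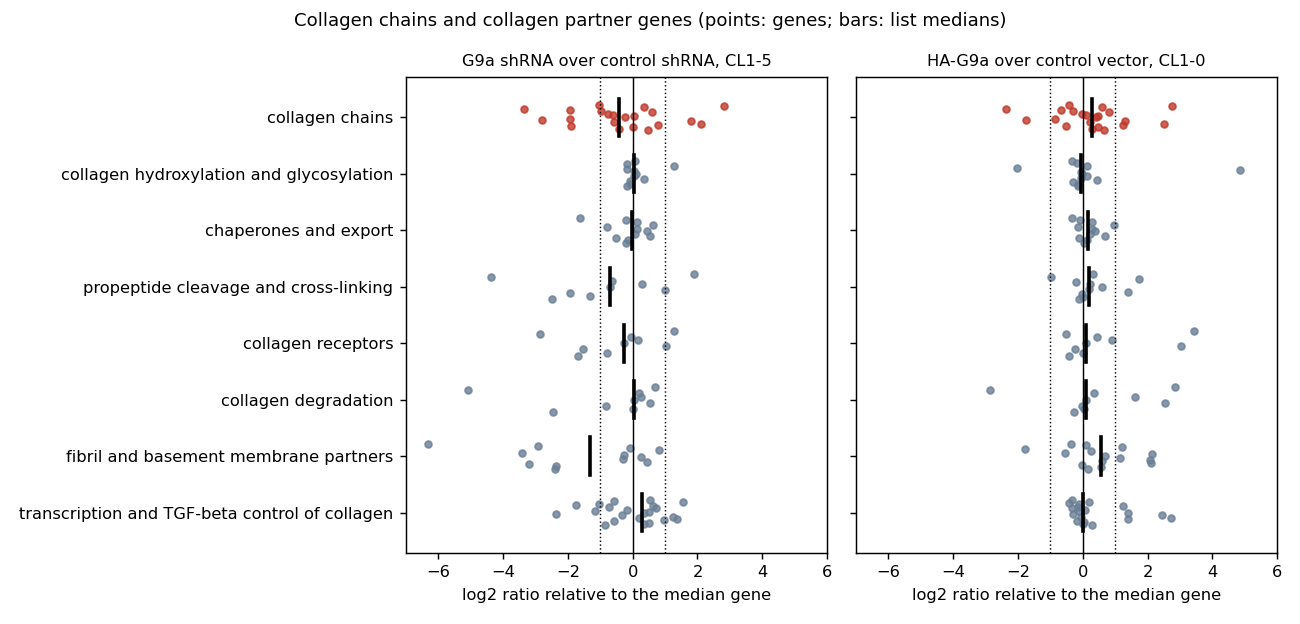
Log2 ratios relative to the median gene of the measured collagen chains (red) and of 7 lists of partner genes, for the G9a shRNA over the control shRNA in CL1-5 (left) and HA-G9a over the vector in CL1-0 (right). Each point is a gene and each bar a list median. The medians of the fibril and basement membrane partners lie at -1.33 on the left and 0.56 on the right, and those of hydroxylation and of chaperones within 0.2 of 0 in both.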

How the data were processed

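The deposited table holds 1 linear intensity per probe set and array for the 4 arrays. Per the submitters' processing notes these intensities came from MAS5; how it was set, how arrays were scaled and which probes it called present were not given in these sources. Signals were used as deposited. Of the 54675 probe sets, 41097 had 1 gene symbol in the platform annotation, 1801 had several and 11777 were unlisted. Symbols were updated by Entrez identifier against RefSeq (GRCh38.p14, 41043 matched), and 58 of the named probe sets, on Y or for 1 X-linked transcript, were dropped.

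A gene was given by its probe set with the highest mean signal. Named collagens were those reaching the 75th percentile on an array or past 2-fold in a single-line comparison; up to 4 genes with the largest ratio could be named per partner list. COL1A2 and COL4A4 were added beside their partner chains after their values were seen. The members and lists were chosen with earlier results of these data known. Line and G9a tests used limma 3.58.1 (R 4.3.3; lmFit, eBayes) on floored log2 values centred per array. On simulated data for 13953 genes, the line test found 12 of the 50 genes given a log2 difference of 3, 45 of the 50 given 5, and 0 of the 50 given 1 or given 2. Other steps used Python 3.11.15. Alternatives covered scaling, floor, filter, probe set choice, fold threshold and left-out arrays. With 1 array per group, array number sets the precision.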

Additional observations from a re-analysis of the deposited data

How the results depend on the processing

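No paired analysis was possible because each group is 1 array and the labels carry no replicate numbers, beyond the model of G9a arm with line as a covariate, which sets the arrays against each other within lines and called 0 genes. The 3 higher and 6 lower collagens of the knockdown became 5 higher without the median correction, 0 higher past the 75th percentile, 1 higher with the mean of all probe sets and 2 lower at 4-fold. The 4 higher and 2 lower collagens with HA-G9a became 2 and 1 with 16 added to each signal in place of the floor, with the mean of all probe sets and at 4-fold; 0 and 1 past the 75th percentile; 4 lower with no filter; and 1 lower without probe sets of types _s_at, _x_at and _a_at. Between the control arrays, 2 were lower past the 75th percentile. Collagens past the 75th percentile numbered 7 with the G9a shRNA, 8 with the control shRNA, 5 with HA-G9a and 5 with the vector. Calls between the lines, 2 higher and 1 lower, became 4 higher with 16 added, 4 and 2 past the 75th percentile, 5 and 2 with an intensity trend, and 0 and 0 with the G9a arm in the model, which leaves 1 residual degree of freedom. Leaving out an array each gave 0 to 1 higher and 0 to 1 lower. COL5A1 turned to 1.42 after the knockdown without probe sets of types _s_at, _x_at and _a_at, since another probe set then stood for it. Of 114 knockdown ratios of named collagens, 107 moved by less than the pooled SD between probe sets, as did 103 of 115 with HA-G9a. Without the median correction every knockdown ratio shifts by 0.42, less than that SD of 0.54, so the count cannot show a change there. In that setting COL7A1 (1.21) and COL18A1 (1.03) were past 2-fold and COL5A1 (-0.61) was not. A floor at the 10th percentile left the knockdown ratios of these genes unchanged. The split of all genes past 2-fold after the knockdown was 1060 higher and 1012 lower, 2198 and 618 without the median correction, and 409 and 648 with 16 added. With HA-G9a it was 699 and 479, 553 and 705 with arrays scaled to 1 median, 652 and 642 with quantile normalization, and 189 and 81 with 16 added. The line test called 333 genes, from 0 with any of 3 arrays left out to 1176 with an intensity trend. Causes not named here were not tested.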

Other observations

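A few values are added for collagens outside the named ones, or from probe sets other than the one that stood for the gene. COL12A1, a FACIT chain, was below the filter in CL1-0 by its brightest probe set, with 11.8 under HA-G9a and 9.46 with the vector, but another of its 5 probe sets read 22.1 with HA-G9a and 3.68 with the vector, a relative log2 ratio of 2.67. COL3A1, near the floor in CL1-5 by its bright probe sets, read 13.1 with the G9a shRNA and 1.29 with the control shRNA on a further probe set, just past the median of all values. COL11A1, a cartilage fibrillar chain, was measured in CL1-0 alone, at 14.5 with HA-G9a and 8.82 with the vector. These probe sets were picked after their values were seen, and the values have no replicate check.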
